A study of Mus musculus with 5 samples.

Results

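The microarray used here reads a transcript by a probe set, a group of short probes whose signals are combined into a single value. The sets described here are those that the platform annotation lists for 2 or more gene symbols, so that their signal cannot be assigned to a single gene. Of 41345 probe sets in the table, 1814 list 2 or more symbols, 23521 list 1 symbol, and 16010 are not listed in the annotation and are unnamed here. Shared probe sets with identical values on all 5 arrays were merged, which left 1621 shared probe sets with 2726 distinct symbols. Of these 1621, 107 were merged from more than 1 probe set (303 in all, at most 16 in a single merged set), and 3 also hold a probe set that lists 1 symbol.

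Related genes arise when a stretch of DNA is copied, and copies that lie in the same chromosome region can stay almost identical for a long time. A probe of such a family can bind the transcripts of many members. Other probe sets are shared because genes overlap, as where a small RNA lies inside a host gene or a transcript runs on the opposite strand. Vomeronasal receptors, which detect pheromones in sensory neurons of the nose, and the spermatid genes of the X and Y chromosomes are well known multi-copy families.

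Total RNA of fresh heart tissue was measured at 12 weeks of age in males of the strain C57BL/6. Wild type hearts were read on 3 arrays (replicates 3, 4 and 5) and Akita hearts on 2 (replicates 1 and 3). Akita mice, labelled Ins2+/-, have 1 mutant copy of the insulin gene Ins2 and serve as a model of type 1 diabetes in which insulin secretion fails; both groups share strain, sex and age. The labels number the samples but do not say that each is a separate animal, so p-values measure the spread among these samples, which may be technical, and the small number of arrays limits the precision. All 10 cardiac myocyte markers were measured, at log2 signals of 8.32 to 13.26, and none was called between the groups (median log2 difference -0.07). The median log2 signal of the listed probe sets was 5.11 to 5.15 on the wild type arrays and 5.17 and 5.22 on the Akita arrays.

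How alike shared genes can be is shown by the RefSeq windows at the gene starts (GRCm38.p6), each from 250 bases before the start to 50 bases after it. The 4 shown first belong to a vomeronasal probe set of 14 symbols that was among the most different between the groups. They lie on the minus strand of chromosome 7, Vmn1r94 at chr7:20168328-20168627, Vmn1r142 at chr7:22163986-22164285, Vmn1r127 at chr7:21319812-21320111 and Vmn1r159 at chr7:22843556-22843855. Capitals mark the bases that differ from the Vmn1r94 window.
Vmn1r94: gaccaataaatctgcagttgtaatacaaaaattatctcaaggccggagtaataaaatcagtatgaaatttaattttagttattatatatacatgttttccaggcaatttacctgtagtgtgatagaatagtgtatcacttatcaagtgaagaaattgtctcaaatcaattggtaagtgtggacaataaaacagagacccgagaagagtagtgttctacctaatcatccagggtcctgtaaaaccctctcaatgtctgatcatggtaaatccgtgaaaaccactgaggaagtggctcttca
Vmn1r142: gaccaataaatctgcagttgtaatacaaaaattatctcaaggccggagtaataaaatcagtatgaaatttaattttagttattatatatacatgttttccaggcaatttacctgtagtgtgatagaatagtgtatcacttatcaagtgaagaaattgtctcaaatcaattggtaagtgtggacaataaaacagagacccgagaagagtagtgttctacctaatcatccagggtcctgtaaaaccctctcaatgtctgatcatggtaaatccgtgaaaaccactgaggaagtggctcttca
Vmn1r127: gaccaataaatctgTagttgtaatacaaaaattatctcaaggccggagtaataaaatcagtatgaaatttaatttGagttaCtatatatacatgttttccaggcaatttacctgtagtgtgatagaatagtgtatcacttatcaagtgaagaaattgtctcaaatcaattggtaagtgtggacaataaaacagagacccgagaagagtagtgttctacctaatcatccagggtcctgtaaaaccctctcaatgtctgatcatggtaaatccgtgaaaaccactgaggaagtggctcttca
Vmn1r159: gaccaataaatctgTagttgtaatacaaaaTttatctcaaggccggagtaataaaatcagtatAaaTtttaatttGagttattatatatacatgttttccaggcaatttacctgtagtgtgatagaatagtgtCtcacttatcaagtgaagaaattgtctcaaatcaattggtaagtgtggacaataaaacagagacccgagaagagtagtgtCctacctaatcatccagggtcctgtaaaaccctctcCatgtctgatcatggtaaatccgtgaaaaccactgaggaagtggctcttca
The Vmn1r142 window was identical to that of Vmn1r94, the Vmn1r127 window had 3 mismatches and the Vmn1r159 window had 8 (97.3% identity).

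A second example comes from the Pramel genes, relatives of the germ cell gene PRAME, whose probe sets list Pramel39, Pramel37, Pramel50 and BC080696 together. The windows lie on the minus strand of chromosome 5, Pramel37 at chr5:94070496-94070795, Pramel50 at chr5:95736124-95736423 and Pramel39 at chr5:94306747-94307046. Capitals mark bases that differ from the Pramel37 window.
Pramel37: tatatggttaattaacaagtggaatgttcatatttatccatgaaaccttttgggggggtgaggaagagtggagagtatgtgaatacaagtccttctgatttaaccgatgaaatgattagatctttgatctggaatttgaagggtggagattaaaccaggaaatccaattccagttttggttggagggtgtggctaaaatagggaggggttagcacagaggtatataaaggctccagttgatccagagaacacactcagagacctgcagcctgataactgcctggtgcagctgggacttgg
Pramel50: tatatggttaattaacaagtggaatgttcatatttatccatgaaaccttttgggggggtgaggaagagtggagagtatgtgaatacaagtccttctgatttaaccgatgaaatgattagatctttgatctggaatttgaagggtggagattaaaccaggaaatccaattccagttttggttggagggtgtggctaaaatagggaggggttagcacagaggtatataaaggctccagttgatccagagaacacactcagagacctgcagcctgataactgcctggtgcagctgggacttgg
Pramel39: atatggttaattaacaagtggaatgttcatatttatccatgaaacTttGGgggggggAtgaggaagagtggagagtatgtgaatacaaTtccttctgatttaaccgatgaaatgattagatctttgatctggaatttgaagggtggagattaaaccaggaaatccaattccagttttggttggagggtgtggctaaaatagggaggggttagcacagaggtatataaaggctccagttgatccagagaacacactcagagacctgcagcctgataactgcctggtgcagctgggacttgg
Pramel50 was identical to Pramel37, and Pramel39 aligned to it with 4 mismatches and 2 gap bases. Over all pairs of genes that share a probe set and have such a window, 1496 of 3095 (48.3%) aligned over at least 150 bases at 90% identity or more. The share was 57.0% of 2572 pairs where the genes lie farther apart on 1 chromosome, 22.9% of 131 pairs within 10 kb, 6.29% of 302 pairs that overlap and 3.15% of 127 pairs on different chromosomes.

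A different kind of sharing occurs where microRNA genes lie opposite each other, so that a single stretch of DNA gives a microRNA from each strand. The mature sequences of 2 such pairs, and of 2 members of the miR-29 family that share a probe set, are shown with the seed (bases 2 to 8, which chooses the target messages) in capitals.
mmu-miR-24-3p: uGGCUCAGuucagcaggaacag
mmu-miR-3074-5p: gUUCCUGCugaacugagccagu
mmu-miR-338-3p: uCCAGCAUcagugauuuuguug
mmu-miR-3065-5p: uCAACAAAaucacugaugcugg
mmu-miR-29b-3p: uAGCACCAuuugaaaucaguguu
mmu-miR-29c-3p: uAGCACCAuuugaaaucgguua
The first pair comes from Mir24-1 (mature form at chr13:63301251-63301272, plus strand) and Mir3074-1 (chr13:63301249-63301270, minus strand), and 20 bases of 1 match the other in antisense. The second comes from Mir338 (chr11:120014781-120014802, minus strand) and Mir3065 (chr11:120014780-120014801, plus strand), with 21 matching bases. The last 2, from Mir29b-2 (chr1:195037091-195037113) and Mir29c (chr1:195037600-195037621), both on the plus strand, have the same seed, AGCACCA.

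Most shared probe sets list few genes. Of the 1621, 1102 list 2 symbols, 328 list 3 to 5, 104 list 6 to 10 and 83 list 11 to 22; a further 4 repeat a symbol for different gene identifiers. By the kind of name, 466 pair 1 named gene with predicted models, 394 hold genes of unlike names, 341 hold members of 1 gene family, 168 hold predicted models only, 124 hold other genes of like names, 97 hold a small RNA locus with another gene and 27 hold a gene with its opposite-strand transcript. By position in the RefSeq gene table, the genes overlap in 565 probe sets, lie within 10 kb in 175, lie farther apart on 1 chromosome in 621 and lie on 2 or more chromosomes in 192. In the other 68, fewer than 2 of the genes could be placed.

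The largest named families were the amplified X- and Y-linked and germ cell genes (60 probe sets), histone genes (47), vomeronasal receptors (45), microRNA loci (29), zinc finger proteins (19), olfactory receptors (18), ribosomal proteins (15) and chemokines (13). Defensins, keratin-related genes, interferon-inducible genes, major histocompatibility genes, globins, glutathione transferases and others had fewer than 10 each. Since probe sets of a family often list the same genes, those that share any symbol were joined into linked groups. There were 994 such groups, 730 of them a single probe set, and probe sets within a group are not independent.

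Shared probe sets were higher in the Akita hearts far more often than the array as a whole. After a filter on mean signal (log2 4.062, the 30th percentile), 1197 shared probe sets were tested, of which 137 rose and 5 fell at an adjusted p under 0.05; over all 17551 tested, 197 rose (1.12%) and 60 fell (0.342%). With each array centred on the common median instead, 195 of all tested were higher and 110 lower. Of the 137, 67 had a wild type mean under the filter and so were tested only because of their Akita signal. The counts without the filter are therefore the ones to compare. Without it, 199 of 1621 shared probe sets were higher (12.3%) and 6 lower, against 1.31% higher and 0.223% lower of all 25069, and 129 of 23448 probe sets of 1 symbol were higher (0.55%). In bulk tissue, fewer cells of a type and less RNA per cell cannot be told apart.

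Most shared probe sets differed little. Their median difference was 0.03 on the log2 scale over all 1621, with quartiles of -0.13 and 0.26, against 0.00 over all 25069. Both Akita arrays lay above all wild type arrays in 421 of them (26.0%, against 12.8% of all) and below in 261 (16.1%, against 15.7%). The 137 that rose differed by 0.69 to 3.48, with a median of 1.58, and 108 differed by more than 1. They were dim on the wild type arrays, with means of 2.87 to 6.36, and reached 4.62 to 8.06 on the Akita arrays. The groups did not overlap in any of these 137, and the median gap between the 2 Akita arrays was 0.19. The 137 were selected by p-value on these same arrays, which favours both traits, so neither is separate evidence of a difference. They fell into 29 linked groups, and the 3 groups with the most held 58 of them.

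The difference grew with the number of genes listed. Among probe sets of 2 symbols the median difference was -0.02 and 32 of 1102 were higher without the filter (2.9%). The median was 0.16 with 3 to 5 symbols, of which 81 of 328 were higher (24.7%), and 0.47 with 6 to 10 symbols, of which 38 of 104 were higher (36.5%). With 11 to 22 symbols the median was 1.10 and 48 of 83 were higher (57.8%). Of the 137 that rose, 116 list 3 or more symbols and 21 list 2. Outside the 3 linked groups with most of them, 102 of the 444 probe sets of 3 or more symbols were higher without the filter.

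**Figure D1:**
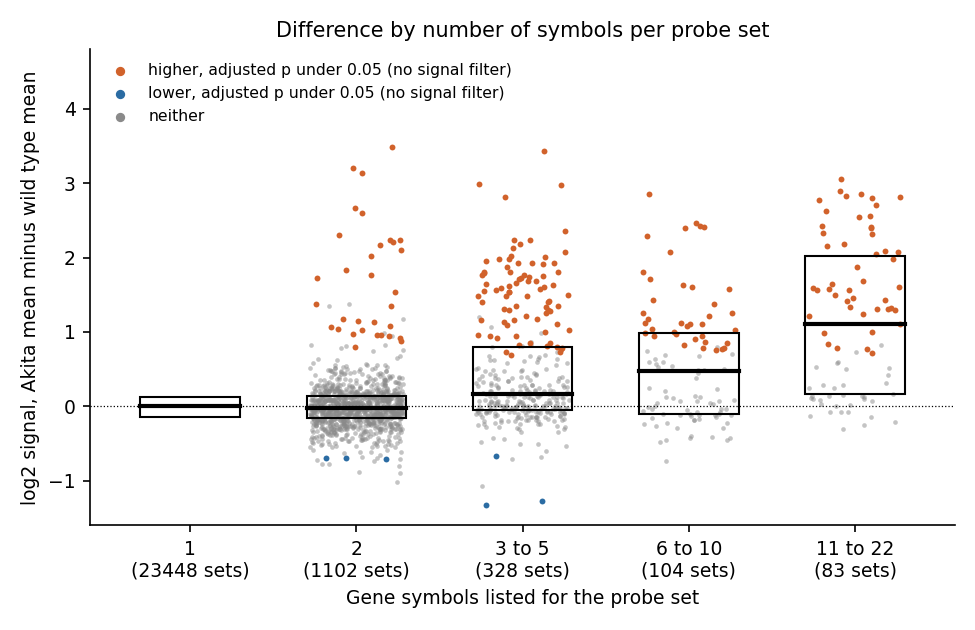
Log2 difference (Akita mean minus wild type mean, y axis) of each shared probe set by the number of symbols it lists (x axis); boxes give the quartiles and thick lines the median, and probe sets of 1 symbol are shown by their box only. Orange points are higher and blue points lower at an adjusted p under 0.05 without a signal filter, and the median goes from -0.02 at 2 symbols to 1.10 at 11 to 22.

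Position separated the probe sets more sharply. Of the 137 that rose, 136 list genes that lie farther apart on 1 chromosome, and without the filter 197 of these 621 were higher (31.7%; median difference 0.28). None of the 565 with overlapping genes was higher without the filter (0 of 446 tested; 2 fell; median -0.03), and 1 of the 175 with genes within 10 kb was (0 of 129 tested; 1 fell; median -0.07). Of the 192 on 2 or more chromosomes, 1 was higher and 3 lower (median -0.05). The same held among probe sets of 2 symbols alone, where 31 of 228 with genes farther apart on 1 chromosome were higher (13.6%), 0 of 530 with overlapping genes and 0 of 160 within 10 kb. By limma at an unadjusted p under 0.05, 211 of the 1197 tested were higher (17.6%, against 4.99% over all 17551) and 112 lower (9.36%, against 9.41%).

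The vomeronasal type 1 receptors formed the group with the most calls. It holds 25 probe sets and 74 symbols of chromosome 7. Of these sets, 24 passed the filter and all 24 rose. The median of their wild type means was 3.57, under the filter cutoff, so many passed only because of their Akita signal. The count without the filter is the one to compare, and there 25 of 25 were higher. In the Vmn2r34, Ssty2, Btbd35f1 and Slx groups below, this median was also under the cutoff (3.71, 3.45, 3.65 and 2.66). The median signal of the 25 was 3.43, 3.61 and 3.85 on the wild type arrays and 5.93 and 6.28 on the Akita arrays. In all 25, every Akita value lay above all wild type values, against 12.8% of all probe sets. The differences ran from 0.92 to 3.05 with a median of 2.47.

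Of these, the probe set of 14 symbols that opens with Vmn1r111, Vmn1r118 and Vmn1r166 had 3.62, 3.61 and 3.93 in wild type and 6.75 and 6.79 in Akita hearts. It rose by 3.05 (SE 0.14, adjusted p = 9.3e-05). The probe set that holds the genes of the windows above, which opens with Vmn1r127, Vmn1r142 and Vmn1r94, had 3.31, 3.49 and 3.26 against 6.08 and 6.43 and rose by 2.90 (SE 0.14, adjusted p = 0.000102). The longest list, of 22 symbols opening with Vmn1r126, Vmn1r114 and Vmn1r93, had 3.08, 3.19 and 3.34 against 5.81 and 6.21 and rose by 2.81 (SE 0.15, adjusted p = 0.000165). All 3 were near the bottom of the signal range in wild type and clear of it in both Akita arrays. Among pairs of genes in this group, 58.4% of 980 pairs of gene start windows were alike.

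Other vomeronasal receptors had smaller median differences. The Vmn2r34 group, type 2 receptors of the same chromosome, has 13 probe sets and 26 symbols; 4 of 7 tested rose, 9 of 13 were higher without the filter, and the median difference was 0.85. A group of 6 receptors that includes Vmn1r186 had 2 probe sets, 1 of which rose (log2 difference 0.95, SE 0.15, adjusted p = 0.0285). The wild type mean of that set was 3.77, under the cutoff, and it was also higher without the filter. Of the 296 vomeronasal probe sets that list 1 symbol, 14 were higher without the filter (4.73%) and the median was 0.09. The share was 0.55% over all probe sets of 1 symbol and 1.31% over all. The 18 shared olfactory receptor probe sets had 0 higher, with or without the filter, and a median of 0.21, and only 2 were tested. Both Akita arrays lay above all wild type arrays in 8 of the 18 (44.4%, against 12.8% of all). They lay below in 2 (11.1%, against 15.7%).

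The spermatid families of the Y chromosome moved in the same direction. Of 63 shared probe sets whose genes all lie on Y, 61 had both Akita arrays above all wild type arrays (96.8%, against 12.8% of all). Without the filter 58 were higher (92.1%, against 1.31% of all), with a median difference of 1.81 over the 63. The Ssty2 group (35 probe sets, 15 symbols), spermatid chromatin genes, had medians of 3.40, 3.66 and 3.52 in wild type and 4.99 and 5.33 in Akita hearts; 21 of 22 tested rose and 33 of 35 were higher without the filter. The 7 probe sets of Ssty1 and Gm20831 all rose, by 1.72 to 2.30. The median of their wild type means was slightly under the filter cutoff, so some were tested only because of their Akita signal. The count without the filter is the one to compare, and there 7 of 7 were higher, against 1.31% of all. In the Sly group, whose gene acts on sex chromosome expression in spermatids, 18 of 18 probe sets were higher without the filter but 3 passed it.

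The probe set of Gm20736 and Gm20871, in the Sly group, had 2.69, 2.71 and 3.22 in wild type against 6.18 and 6.52 in Akita hearts, the largest difference of any shared probe set (3.48, SE 0.19, adjusted p = 0.000176). The probe set of Sly with Gm20736, Gm20871, Gm20857 and Gm20858 had 3.23, 3.57 and 3.58 against 6.72 and 7.06 (difference 3.43, SE 0.16, adjusted p = 9.4e-05). The groups were well apart in both. Single-copy Y genes, a list chosen after values were seen, were measured for 3 of 4: Kdm5d, Uty and Eif2s3y differed by -0.28, -0.18 and 0.18 and none was called.

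X-linked families included the Btbd35f1 group (7 probe sets, 17 symbols), of which all 7 were higher without the filter, with a median of 1.58, and 4 of 4 tested rose. Slx, the X-linked relative of Sly, and its predicted copies had 5 of 6 higher without the filter (median 1.37; 2 of 2 tested rose), whereas the related Slxl1 group had 0 of 12 higher (median 0.36). The probe set of Astx5 and Orly was merged from 4 and is the 1 of the 137 whose genes are placed on 2 chromosomes, X and Y. It had 4.63, 4.68 and 5.0 in wild type and 7.92 and 7.90 in Akita hearts (difference 3.14, SE 0.14, adjusted p = 9.3e-05), so that its Akita arrays were almost equal. Of 9 probe sets of the H2al1a group, X-linked histone variants of spermatids, 0 were higher and the median was 0.10.

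Chromosome 5 held 27 of the probe sets that rose, of 66 tested there, in 7 linked groups of Pramel, Speer and predicted genes. Without the filter, 35 of its 97 shared probe sets were higher (36.1%, against 1.31% of all). In several of these groups, such as Pramel40 and Pramel42, the median wild type mean was under the cutoff (3.56 and 3.47). All 10 probe sets of Pramel39, Pramel37, Pramel50 and BC080696, whose start windows are printed above, rose, by 1.26 to 1.71. The most different had 4.06, 4.04 and 4.24 in wild type against 5.83 and 5.82 in Akita hearts (1.71, SE 0.12, adjusted p = 0.000462). The Pramel40 group (6 probe sets) had 6 of 6 higher without the filter and a median of 2.10, and the Pramel42 group had 7 of 8 and 1.54. In the Speer4b group, glutamate-rich genes of the testis, 6 of 7 were higher and the median was 1.18. The remaining set, of predicted models only, differed by -0.16.

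Further autosomal groups were spread over several chromosomes. The Gm10340 group of predicted models on chromosome 14 (22 probe sets, 37 symbols) had 13 of 22 rising and a median of 0.90. The Gm11487 group on chromosome 4 had 7 of 7 rising and a median of 1.04, and 6 of 6 probe sets of 4930467E23Rik and Gm15319 on chromosome 8 rose, with a median of 1.03. The pancreatic amylase genes of the Amy2a2 group, on chromosome 3, had 5 of 5 higher without the filter. Their probe set of smallest p, which lists 6 symbols, had 4.23, 4.16 and 4.30 against 5.36 and 5.31, with means of 4.23 ± 0.07 (SD, n = 3) for wild type and 5.34 ± 0.04 (SD, n = 2) for Akita (1.10, SE 0.11, adjusted p = 0.0028). Probe sets quoted for these groups outside the naming rule were chosen after their values were seen.

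Among small families, 16 probe sets of Gm26504, Snord116l1 and Snord116l2 had identical values and were merged. The Snord116 locus makes small nucleolar RNAs from an imprinted region. The merged set had 4.64, 5.39 and 5.20 in wild type and 8.38 and 7.74 in Akita hearts (2.98, SE 0.26, adjusted p = 0.00151), a wider spread within both groups than in the sets above but no overlap. The secretoglobin probe set of Scgb2b20 and Scgb2b7 rose by 0.96 (SE 0.16, adjusted p = 0.0352) and that of 4 Scgb1b genes by 0.80 (SE 0.14, adjusted p = 0.0389). Both lost the call with any single wild type array left out, with limma adjusted p up to 0.169 and 0.166. They also lost it without Akita replicate 1, and the Scgb1b set lost it without Akita replicate 3 as well. Probe sets of Nlrp4e, Nlrp4c and Gm4541, and of Csprs with Gm7609, also rose, the first by 0.69 and the Csprs;Gm7609 and Gm7609;Csprs sets by 1.07 and 1.14. The wild type means of the Scgb2b20 and Nlrp4e sets, 3.75 and 3.93, were under the filter cutoff. These sets were tested only because of their Akita signal, and both were also higher without the filter.

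**Figure D2:**
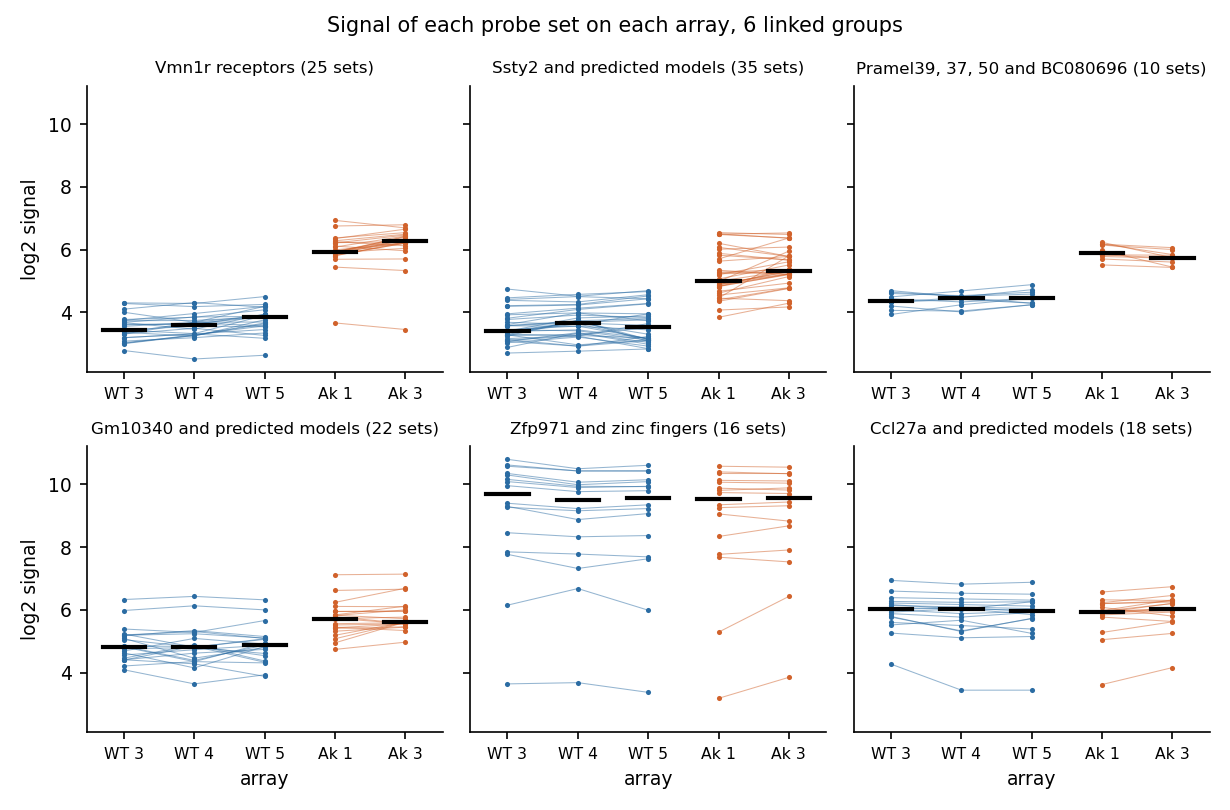
Log2 signal (y axis) of every probe set of 6 linked groups on each of the 5 arrays (x axis; WT, wild type; Ak, Akita); lines join the values of a probe set within a genotype and black bars are medians over probe sets. In the Vmn1r, Ssty2, Pramel and Gm10340 groups the Akita medians lie above the wild type medians, whereas the Zfp971 and Ccl27a groups have medians of 9.54 and 9.57, and of 5.94 and 6.04, on the Akita arrays, close to wild type.

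Other groups of many related genes had no calls, including 2 whose start windows were all alike. Over all window pairs, 973 of 1604 (60.7%) were alike on probe sets that rose and 801 of 1865 (42.9%) on those that did not. A pair can be in both counts. The Zfp971 group holds 16 probe sets and 24 symbols of zinc finger proteins of chromosome 2, and all 80 of its window pairs were alike. Its median signal was 9.68, 9.50 and 9.57 in wild type and 9.54 and 9.57 in Akita hearts, and 0 of 16 were called (median difference -0.07, range -0.41 to 0.12). The Ccl27a group on chromosome 4 (18 probe sets, 12 symbols), with all 15 window pairs alike, had 0 called and a median of -0.03. Of the window pairs, 24 of 105 (22.9%) were alike in the type I interferon group of Ifnz and 1 of 57 (1.75%) in the H2bc11 histone group. The Ifnz group, with 13 probe sets and 15 symbols, had 0 called and a median of 0.18. The H2bc11 group had 0 of 8 called and a median of -0.06, and over all 47 histone probe sets the median was 0.00.

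Defensins lay between. In the Defa2 group, antimicrobial peptide genes of the gut, 7 of 9 had both Akita arrays above all wild type arrays (77.8%, against 12.8% of all). The median was 0.64, but 0 were called (smallest limma adjusted p 0.0628). That value belongs to Defa23, Defa31, Defa2, Defa17 and Defa3, with 4.64, 4.65 and 4.91 against 5.71 and 5.35. Chemokine genes of the Ccl21a group, which guide lymphocytes to lymphatic vessels, had all 5 probe sets below wild type on both Akita arrays (median -0.45) and 0 called. Over all probe sets, 15.7% lay below in this way. The 5 sets list the same 8 symbols and are not independent. The set of smallest p there had 8.88, 8.90 and 8.88 against 8.36 and 8.52 (adjusted p = 0.134).

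**Figure D3:**
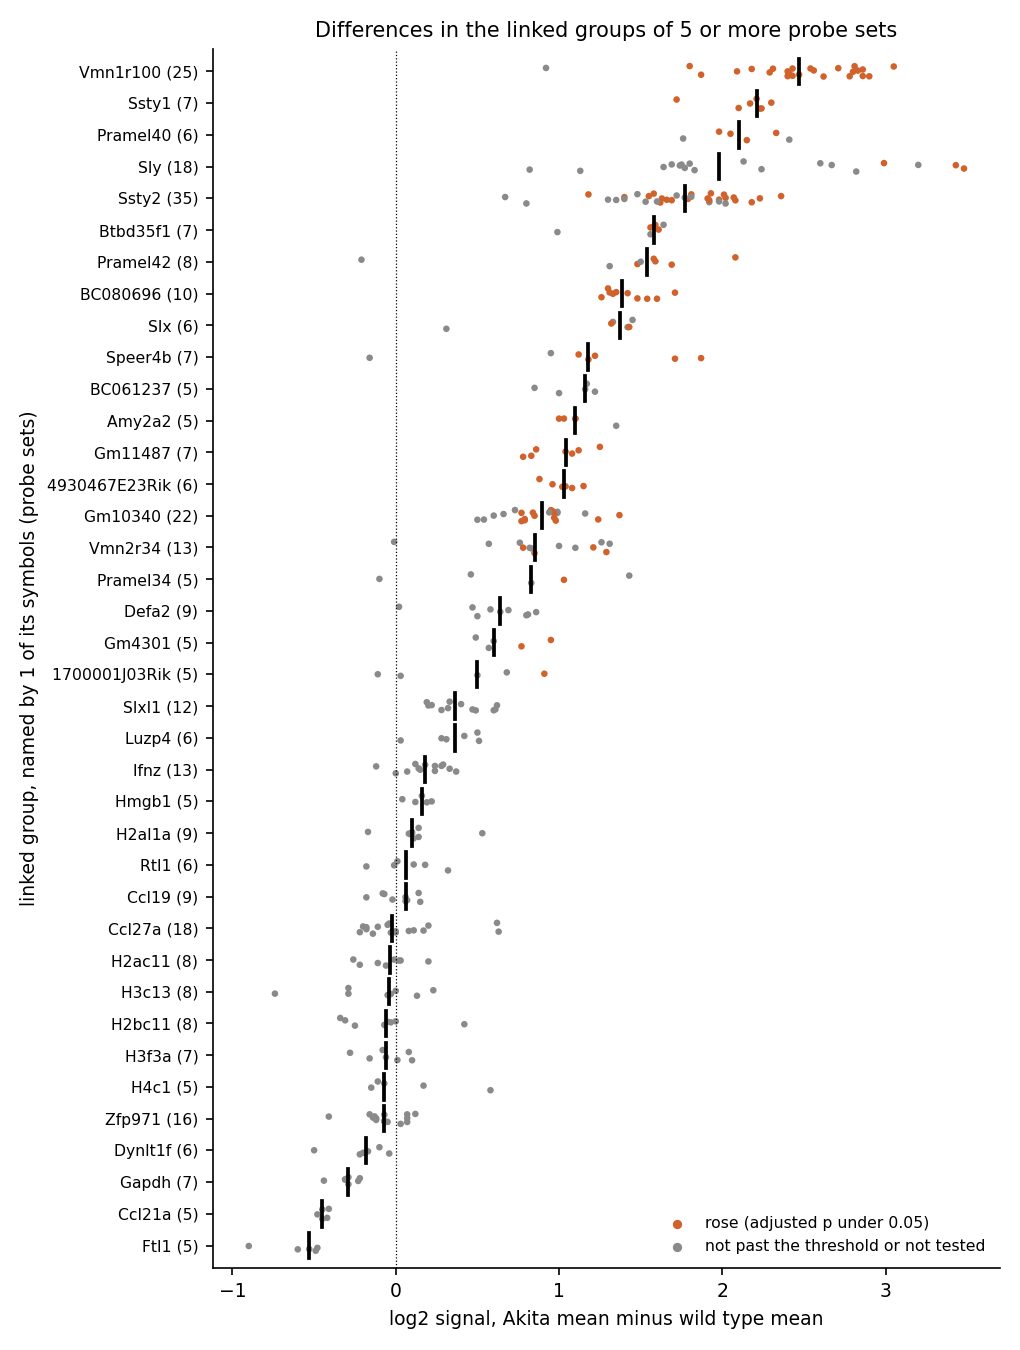
Log2 difference (Akita mean minus wild type mean, x axis) of each probe set in the linked groups of 5 or more probe sets (y axis, with the number in each); black bars are group medians and orange points rose at an adjusted p under 0.05 after the signal filter. Group medians run from 2.47 in the Vmn1r100 group down to -0.53 in the Ftl1 group.

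The 5 shared probe sets that fell were bright ones, with wild type means of 9.16 to 10.44. A pair of them list Wdr83os, an endoplasmic reticulum protein gene, with Gm2573 and Gm13770. The first had 10.23 ± 0.25 (SD, n = 3) in wild type, at most 10.50, against 8.77 and 9.04 (-1.32, SE 0.17, adjusted p = 0.0103). The second had 10.71, 10.21 and 10.39 against 9.05 and 9.28 (-1.27, SE 0.17, adjusted p = 0.0116). The groups did not overlap, and without Akita replicate 1 the adjusted p values were 0.0723 and 0.0801.

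Gstp1 and Gstp2, which join glutathione to reactive compounds, had 10.10, 9.95 and 9.99 against 9.32 and 9.32 (-0.69, SE 0.11, adjusted p = 0.0288). The neighbours Hcfc1r1 and Thoc6, the latter of the messenger RNA export complex, had 9.19, 9.30 and 9.20 against 8.46 and 8.60 (-0.70, SE 0.11, adjusted p = 0.0304). Tomm6, a subunit of the mitochondrial import channel, listed with its antisense transcript, had 9.30, 9.11 and 9.06 against 8.51 and 8.38 (-0.71, SE 0.12, adjusted p = 0.0419). With any single array left out, these 3 were no longer called, with limma adjusted p values of up to 0.175. A further set of Hcfc1r1 and Thoc6 differed by -0.26 and was not called. The other sets in the linked group of Tomm6 differed by 0.02 and 0.16, and neither was called.

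**Figure D4:**
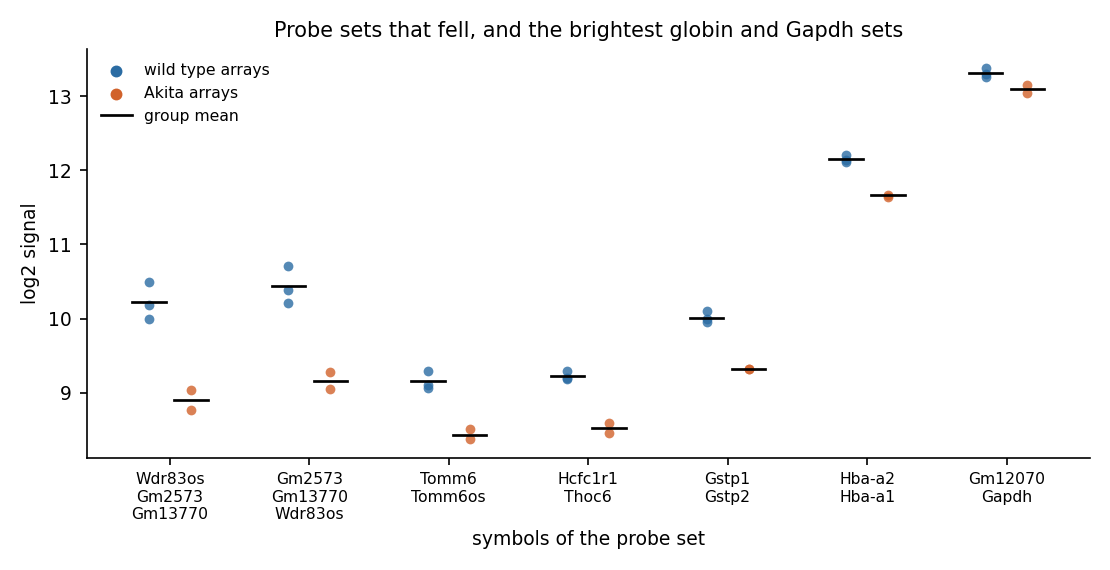
Log2 signal (y axis) of the 5 shared probe sets that fell and of the brightest Hba-a2/Hba-a1 and Gm12070/Gapdh sets (x axis); points are arrays and bars are group means. In all 7 the Akita values lie below every wild type value, by 0.22 to 1.32 between the means, and the last 2 were not called.

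Several bright shared probe sets lay lower without passing the threshold. The alpha globin probe set of Hba-a2 and Hba-a1 had 12.20, 12.11 and 12.14 against 11.64 and 11.67 (-0.49, SE 0.11, adjusted p = 0.0886). The summed signal of the red blood cell markers, a list that contains these globins, was 12.29 to 12.41 in wild type and 11.88 and 11.90 in Akita hearts, each probe set counted once. The alpha globin set dominates this sum, which is therefore no separate reading of red blood cells. Outside the globins, Slc4a1 and Epb42 differed by 0.23 and 0.11. Bpgm differed by -0.23, and the shared set of Alas2 with Apex2 by -0.26. Of the 9 probe sets on the list 0 were called, and the part of red blood cells in the globin values was not tested. The beta globin sets differed by -0.02, -0.27 and -0.19. All 5 probe sets of Ftl1, the light chain of the iron store ferritin, and its pseudogenes were below wild type on both Akita arrays (median -0.53), with 0 called. Over all probe sets, 15.7% lay below in this way. The Ftl1 set of smallest p had 10.55, 10.52 and 10.53 against 10.01 and 9.85 (adjusted p = 0.0531).

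All 7 probe sets of the Gapdh group, for the glycolytic enzyme and its copies, also lay below wild type on both Akita arrays (against 15.7% of all probe sets), by 0.22 to 0.44, with 0 called. The brightest had 13.38, 13.26 and 13.29 against 13.04 and 13.15 (-0.22, adjusted p = 0.435). Other bright sets showed little difference. COX2 with Prf1 differed by 0.08, ATP6 with Gm10925 and ATP8 by 0.12, Cox6c with Gm6265 by -0.01, and Snord32a with Rpl13a by 0.02; none was called. The 15 ribosomal protein sets had a median of 0.05 and 0 called.

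The histocompatibility, interferon-inducible and fixed metabolic families had no calls among their shared probe sets. Of 6 major histocompatibility sets assigned to that family, 3 lay above wild type on both Akita arrays and the median was 0.24. Among them H2-Q7 with H2-Q9 and H2-Q8 had 4.90, 5.07 and 4.94 against 5.43 and 5.44 (0.47, adjusted p = 0.125). Of the 8 interferon-inducible sets, 0 were called and the median was -0.14. The set of Trim34b and Trim34a had 4.73, 5.37 and 5.33 against 3.83 and 4.41 (-1.02, SE 0.24, adjusted p = 0.121). The sets of the Pcdha and Pcdhga clusters differed by 0.05 and -0.24, that of Hspa1a and Hspa1b by 0.20, and those of Acot8 and Acot11 with a neighbour by -0.20 and 0.08. A Ugt1a set of 5 symbols, for enzymes that attach glucuronic acid, had 4.70, 4.49 and 4.88 against 5.36 and 5.37 (0.67, SE 0.14, adjusted p = 0.0817). The Ugt1a set of 8 symbols, with 3.91, 3.87 and 4.01 against 4.08 and 4.26, was under the signal filter, as were the major urinary protein sets.

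Of 111 shared probe sets with a microRNA symbol, 73 were tested, 1 rose (1.37%, against 1.12% of all tested) and 0 fell. Without the filter, 3 of the 111 were higher (2.7%, against 1.31% of all), all 3 among the 33 that list microRNA loci only. The 72 that pair a microRNA with another gene had 0 higher, with or without the filter, and a median of -0.03. The set that rose lists Mir467a-3, Mir467a-6 and Mir467a-10, copies within an intron cluster of Sfmbt2. It had 4.31, 4.37 and 4.45 against 5.54 and 5.06 (0.92, SE 0.16, adjusted p = 0.0389). The call was lost with any single wild type array left out, with limma adjusted p up to 0.21, and also without Akita replicate 1. The 2 other sets of this group were under the filter and differed by 0.72 and 0.73.

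Of the microRNAs printed above, Mir29b-2;Mir29c;A330023F24Rik had 5.07, 5.23 and 4.69 against 4.41 and 4.23 (-0.68, SE 0.17, adjusted p = 0.146). The Mir24-1;Mir3074-1 set that passed the filter had 4.23, 4.56 and 4.0 against 5.07 and 4.21, so the groups overlapped. The Mir338;Mir3065 sets had 4.53, 4.29 and 4.28 against 5.41 and 4.43, and 4.88, 5.38 and 5.21 against 5.41 and 5.33, with adjusted p of 0.399 and 0.6. The arrays read the precursor loci, and the mature strands of a pair cannot be separated in these values. Apart from Snord116l1, the small nucleolar and nuclear RNA family had 4 shared sets and 0 called, among them Rnu1b1 with Rnu1b2 and Rnu1b6 at 8.31, 9.96 and 10.06 against 10.10 and 9.35.

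Genes on a shared probe set often have a probe set of their own, which lists that gene alone, although it too can hold probes that match relatives. Of the shared probe sets that rose, 98 list at least 1 of 90 such genes. The shared median was 1.69 and the own median 0.66. Only the shared sets were selected for having risen, which favours a larger shared median. Of the 90 genes, 18 had an own probe set that rose, against 60 of all 16354 probe sets of 1 symbol tested. The sign was the same in 259 of 267 pairs, which reuse genes and probe sets and are given as a description. For shared sets not called, it was the same in 498 of 824. The 3 own sets of Astx5 rose with a mean difference of 2.95, near the shared 3.14. In the Vmn1r group, 23 genes had own sets, with differences of 0.12 to 2.78 and a median of 1.15, and 4 of them rose: Vmn1r91, Vmn1r103, Vmn1r94 and Vmn1r158. Of the genes on the set that fell, Gstp1 and Gstp2 had own differences of -0.86 and -0.45, neither called.

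**Figure D5:**
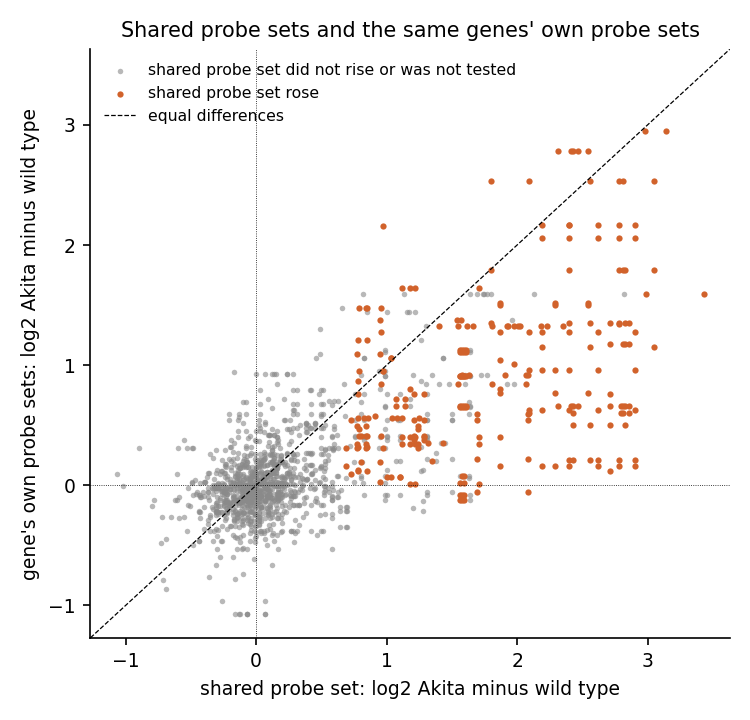
Log2 difference (Akita mean minus wild type mean) of a shared probe set (x axis) and of the own probe sets of a gene it lists (y axis, mean over them), 1 point per pair; the dashed line marks equal differences. Most orange points, for shared sets that rose, lie under the line, with medians of 1.69 on the x axis and 0.66 on the y axis. Selecting shared sets that rose favours larger values on the x axis.

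The 2 Akita arrays did not differ from wild type in the same proportion on every chromosome. Of the 38 probe sets on X or Y that rose, 29 were higher in Akita replicate 3 than in replicate 1 (median gap 0.34), and so were 24 of 36 on chromosome 7 (median 0.17). On chromosome 5 it was 5 of 27 (median -0.11), on chromosome 4 it was 0 of 7 and on chromosome 3 it was 0 of 4. These sets are not independent. They came from 6 linked groups on X or Y, 8 on chromosome 7, 7 on chromosome 5, and 1 each on chromosomes 4 and 3. The counts are given as a description. Markers of testis germ cells and of olfactory neurons were also measured, and the part of these cells in the results was not tested. No list of vomeronasal neuron markers was made. The 5 testis germ cell markers (Prm1, Prm2, Tnp1, Ddx4 and Dazl) had a median difference of 0.18 with 0 called. Their summed signal was 7.03 to 7.21 in wild type and 7.43 and 7.09 in Akita hearts. Prm2 was read only from a probe set shared with Wdr19, whose signal cannot be assigned to Prm2 alone. That set was the brightest of the 5 and dominates the sum, which is therefore no clear reading of germ cells. Tnp1, Ddx4 and Dazl were under the signal filter and were not tested. The 3 olfactory neuron markers (Omp, Cnga2 and Gnal) had a median of 0.21 with 0 called, summed at 5.20 to 5.60 and at 5.83 and 5.75. Of these, Cnga2 and Gnal were under the signal filter and were not tested.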

How the data were processed

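RNA of 5 mouse heart samples, 3 wild type and 2 Akita, was measured on an Affymetrix whole-transcript array. The deposited values are log2 signals, made by the authors with Affymetrix Expression Console per the submitters' processing notes; for its version and summarisation method, the sources used here give nothing. Symbols came from the platform annotation, which can be old, and gene positions and sequences from RefSeq (GRCm38.p6).

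Probe sets with identical values on all 5 arrays were merged, and those with a mean signal under the 30th percentile (log2 4.062) were left out of the test, which left 17551. Groups were compared with limma 3.58.1 (R 4.3.3; lmFit and eBayes, two-sided, 3 residual and 4.34 prior degrees of freedom), with Benjamini-Hochberg adjustment over all probe sets tested and a threshold of 0.05. A difference is the Akita mean minus the wild type mean on the log2 scale. No pseudocount was used. The unlisted probe sets entered only an alternative. Tables and plots used Python 3.11.15, pandas 2.3.3 and matplotlib 3.10.9, and window alignments used Biopython 1.88.

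On simulated data the test recovered 58% of changes of 1 and 94% of changes of 2 on the log2 scale over 17551 probe sets, with 4 false among 156 calls, and made 0 calls where nothing was changed.

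Shared probe sets are named if among the 15 with the highest or lowest difference past the threshold (filled to 10 by unadjusted p), the 3 of smallest p in a family with 3 or more tested, the 10 brightest, the 5 with the most symbols, or if they list Hba, Hbb, Hspa1, Mup, Ugt1a, Pcdh, H2 or Acot genes. Those quoted outside this rule, for linked groups and microRNAs, were picked with their values known. The members and lists were chosen with earlier results of these data known. Alternatives changed the filter, normalization, centring, merging, variance model, array weights and threshold, and left out each array in turn.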

Additional observations from a re-analysis of the deposited data

How the results depend on the processing

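No paired analysis was possible because the groups share only replicate number 3. The main counts were 137 shared probe sets higher and 5 lower, and 197 and 60 over all tested. Without the signal filter, 328 of all were higher and the shared median was 0.03. With the filter at the 50th percentile, 34 shared and 67 of all were higher, and the medians were -0.0367 and -0.0683. With arrays centred on the median, 11 shared and 110 of all were lower, and the medians were -0.065 and -0.0983. With unlisted probe sets included, 2 shared were lower, and 399 of all were higher and 93 lower. Without merging, 212 shared were higher and 9 lower, and 298 of all were higher. With an intensity trend and robust prior, 23 shared and 254 of all were lower. Array weights gave 3 shared and 33 of all lower. At an adjusted p of 0.1, 14 shared and 185 of all were lower. Without moderation, limma's linear fit called 0 in either direction, shared or all (smallest adjusted p 0.0992); at an unadjusted p under 0.05 it gave 196 shared higher and 97 lower, and 716 and 1391 of all.

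With each array left out in turn, 91 to 111 shared were higher and 0 to 6 lower, and 122 to 184 of all were higher and 10 to 59 lower. Without wild type replicate 3 the counts were 91 and 2 shared, and 122 and 10 of all; without wild type replicate 4, 2 shared and 15 of all were lower; without wild type replicate 5, 3 and 25; and without Akita replicate 1, 0 and 19. In that last limma fit, 80 shared were lower at an unadjusted p under 0.05. Of 29 named calls, 21 remained with each array left out, and the 8 others (3 higher, 5 lower) lost the call at least once. None of the 29 changed sign in the alternatives run. 

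Of 97 named probe sets compared across alternatives, 12 that were not called changed sign at least once, 25 times in all. Centring turned the Pcdhac2 set to -0.02, the Snord1c set to -0.03 and the Snord32a set to -0.04. Repeated quantile normalization turned H2-T22 to 0.04 and the Hbb-b1;Hbb-bs;Hbb-b2 set to 0.07, and array weights turned the latter to 0.02. With each array left out in turn, the log2 difference ran from -0.29 to 0.66 for the Rnu1b1 set, from -0.08 to 0.66 for the Ighv1-54 set, from -0.36 to 0.05 for the Igkv4-53 set and from -0.29 to 0.10 for Trim65 with Trim47. It ran from -0.02 to 0.39 for Scgb1b12 with Scgb1b19, from -0.01 to 0.28 for the Gsta1 set, from -0.05 to 0.24 for Krt5 with Krt6a and from -0.17 to 0.21 for the Hbb-b1 set. For the Pcdhac2 set it ran from -0.10 to 0.20, for the Snord1c set from -0.01 to 0.12, for the Snord32a set from -0.05 to 0.09, and for H2-T22 with H2-T9 from -0.05 to 0.05. The causes of these shifts were not tested. With 5 arrays, small changes of dim probe sets are not detectable.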
